A study of Mus musculus with 6 samples.

Results

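The genes that carry newly made proteins into the endoplasmic reticulum (ER) and from there to the Golgi apparatus were examined in cultured smooth muscle cells of the mouse pulmonary artery (mPASMCs) in which *Snhg18*, a long noncoding RNA, was knocked down. The members were all protein-coding genes whose symbol belongs to one of the families that do this work (Sec, Cop, Tmed, Ssr, Spcs, Srp, Kdelr, Sar1, *Rer1*, Golga, Lman, Trappc, Rab1, Rab2, Rab6, *Surf4* and Ergic), which gave 99 of the 55487 genes in the count table. They were picked with the result in view, since the fall of *Rer1* and *Ssr3* in the knockdown libraries was part of the choice. The contrast between the groups is therefore given for the members as a description, with counts and sizes. No p-value of a single member is printed. Calls of members at a p-value threshold are labels from the fits and belong to that description. The study compared 3 libraries of cells transfected with a control siRNA (si-NC) with 3 libraries of cells transfected with an siRNA against *Snhg18* (si-*Snhg18*), to look for genes downstream of this RNA. It lists a single siRNA sequence against mouse *Snhg18*. Loss of *Snhg18* and other effects of that siRNA therefore cannot be told apart in these libraries. Matches of the siRNA to other transcripts were not looked for. The cells were commercial cultured mPASMCs that carried no other engineered change by the labels, and the oxygen level, the time after transfection and the number of separate cultures of the sequenced cells are not given in the sources used here. The spread between libraries may therefore be technical, and every p-value below measures that spread alone. A transient transfection can leave part of the cells without siRNA, so that a library may hold both kinds.

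Proteins bound for secretion, for membranes or for the ER itself are recognized on the ribosome by the signal recognition particle (SRP), handed to the Sec61 channel in the ER membrane with the help of the TRAP complex, and cut by signal peptidase. They leave the ER in vesicles coated with COPII, and escaped ER proteins and empty cargo receptors come back from the Golgi in vesicles coated with COPI. Cargo and retrieval receptors choose what travels, while Rab GTPases, TRAPP complexes, golgins and SNAREs tether and fuse the vesicles. Vascular smooth muscle cells use this route to deliver collagen, elastin and other matrix proteins.

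The libraries held between 18097718 and 25988746 counted reads, so that a count of 3 reads, the smallest level taken as detectable, stood for 0.115 to 0.166 CPM (counts scaled to library size). Values are listed in the order of libraries 1, 2 and 3 of each group, and mean values carry the SD with n = 3. Log2 fold changes (log2FC) are those of si-*Snhg18* against si-NC, with a standard error (SE). The SE was computed from the test, as the size of the log2FC over the square root of its F statistic. *Snhg18* was at 23.5, 22.4 and 22.2 CPM in si-NC and at 10.6, 11.2 and 9.97 CPM in si-*Snhg18*, a log2FC of -1.10 with SE 0.0985 (adjusted p = 0.00727 by edgeR's quasi-likelihood test, and 0.000828 once the library number was added as a block). The 8 smooth muscle markers summed to 1994 to 2134 CPM in si-NC and to 1373 to 2085 CPM in si-*Snhg18*, and 1 of the 8, *Tagln*, fell (log2FC -0.51, adjusted p = 0.0427). The 4 fibroblast markers summed to 2263 to 2957 CPM and to 1375 to 2215 CPM, the 5 endothelial markers to 12.4 to 13.97 CPM and to 13.3 to 15.4 CPM, and the 5 leukocyte markers to 113 to 157 CPM and to 71.9 to 112 CPM. Of these 3 lists *Cd53* alone passed the test without the block (log2FC -1.10), while *Ptprc*, the defining leukocyte marker, had at most 8 reads. With the block *Myh11*, *Cnn1*, *Myl9* and *Des* of the smooth muscle list were lower too, as were *Pdgfra* (log2FC -0.34), *Col1a1* (-0.60) and *Tek* (-1.47) of the others, while *Cd14* was higher (0.59). The 4 epithelial markers summed to at most 0.572 CPM, with *Sftpc* at 0. The part of these markers in the results was not tested, and fewer cells of a type and less RNA per cell cannot be told apart in these libraries.

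Of the 99 members, 95 had enough reads to be tested. *Tmed11* and *Golga7b* had no read in any library, which allows a level of up to 0.115 to 0.166 CPM, and *Tmed6* and *Trappc3l* had at most 2 reads. The members together took 1.21%, 1.202% and 1.21% of all counted reads in si-NC and 1.01%, 1.05% and 1.02% in si-*Snhg18*. All 3 knockdown libraries thus lay below all 3 controls.

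Among the 95 tested members, 20 were lower in si-*Snhg18* at an adjusted p under 0.05 (21.1%) and 3 were higher (3.16%). Over all 14531 genes tested, 3.71% were lower and 3.65% were higher, or 7.36% in either direction. Once the library number entered as a block, 39 members were lower and 6 were higher, where 13.6% of all genes passed in each direction. With a requirement of at least 1.5-fold as well, 8 members were lower (11 with the block), beside 1.95% of all genes lower and 1.72% higher (5.85% and 4.24% with the block). The 3 higher members were *Golga7*, *Rab1b* and *Trappc3*. Here and below, a member said to pass only with the block did so by edgeR's quasi-likelihood test with TMM factors. At an unadjusted p under 0.05, 40 members were lower and 6 were higher, beside 12.1% and 12.8% of all genes. The fitted log2 fold change lay below 0 for 67 members and above 0 for 28, with a median of -0.16, where the median over all genes was 0.0072 and 49.2% of all genes lay below 0. In 43 members every knockdown library lay under every control library, and in 6 every one lay above, beside 15.5% and 15.4% of all genes. Since the choice of members used this contrast, nothing is read from these shares.

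**Figure D1:**
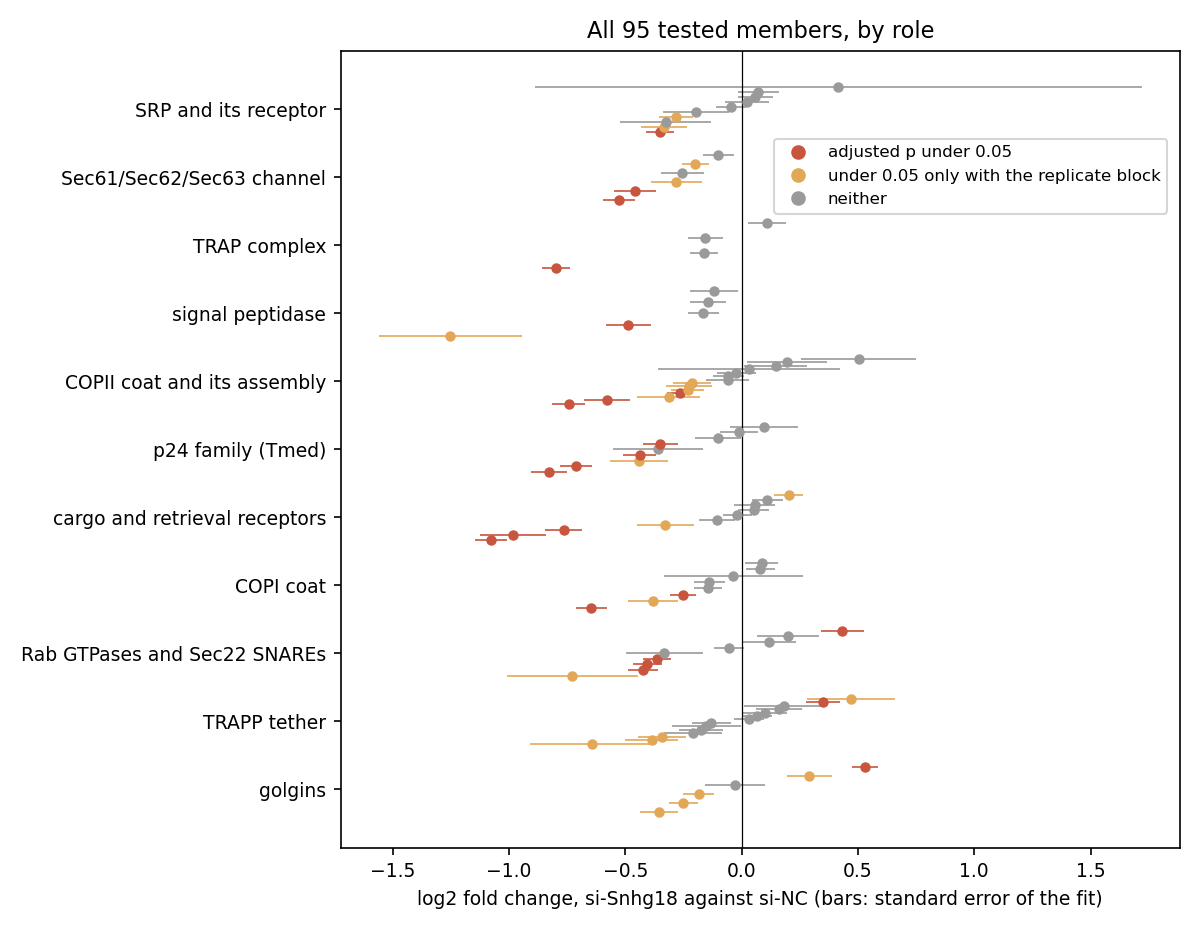
Log2 fold change of si-*Snhg18* against si-NC for the 95 tested members, grouped by role, with the SE computed from the test as bars; red points passed an adjusted p of 0.05, orange points passed only with the block, and grey points passed neither. All 6 members of the Sec61, *Sec62* and *Sec63* channel and all 5 of signal peptidase lie left of 0, some of them close to it. The 14 TRAPP subunits lie 7 on each side. Of all genes tested, 49.2% had a fitted value below 0.

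The number of members past the threshold depended on the libraries in the fit. By edgeR's quasi-likelihood test 0 members were called when si-NC 1, si-NC 3 or si-*Snhg18* 3 was left out, although 31 members were lower at an unadjusted p under 0.05 in each of these fits, beside 8.52%, 8.99% and 7.99% of all genes, and 3, 6 and 4 were higher, beside 8.29%, 9.29% and 8.61%. DESeq2 called 14, 13 and 12 lower and 1 higher in each of the same sets of libraries, where it called 3.14%, 3.22% and 2.67% of all genes lower and 2.89%, 3.2% and 2.21% higher. Without si-NC 2, 7 members were lower and 1 was higher, beside 0.694% and 0.371% of all genes. Without si-*Snhg18* 1, 9 were lower and 1 was higher, beside 1.19% and 0.966%. Without si-*Snhg18* 2, 29 were lower and 5 were higher, beside 11.7% and 10.4%, and the count over all genes called lower rose to 1737 from 539. The members' median stayed between -0.18 and -0.14 in these 6 fits.

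*Rer1* and *Ssr3*, the genes that the choice of members rested on, fell in all 3 knockdown libraries. *Rer1* (ENSMUSG00000029048, minus strand, chr4:155074110-155086382 in GRCm38) encodes a receptor in the cis-Golgi that returns membrane proteins and unassembled subunits to the ER. It was at 141, 143 and 138 CPM in si-NC and 64.8, 71.8 and 63.8 CPM in si-*Snhg18*. The groups did not overlap, and 47.4% of the control mean remained, a log2 fold change of -1.08 with SE 0.0702. *Ssr3* (ENSMUSG00000027828, minus strand, chr3:65379655-65392623) encodes the gamma subunit of TRAP, which sits beside the Sec61 channel. It was at 538, 543 and 536 CPM in si-NC and 313, 317 and 300.03 CPM in si-*Snhg18*, and 57.6% of the control mean remained (log2FC -0.80, SE 0.0592). The lowest control library lay well above the highest knockdown library for both genes.

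The 250 bases before the RefSeq start of both genes are shown because these members set the choice, with capitals for the letters ACGTGGC, for CCAAT (the CCAAT box) and for GGGCGG (the GC box) or their reverse complements, read on the gene's own strand in GRCm38.p6. The stretch of *Rer1* is chr4:155086354-155086603 (minus strand) and has a GC content of 66.0%. That of *Ssr3* is chr3:65392554-65392803 (minus strand), with a GC content of 59.6%. The RefSeq start differs from the gene coordinates given above, which come with the counts, so that both stretches reach into those coordinates.
*Rer1*: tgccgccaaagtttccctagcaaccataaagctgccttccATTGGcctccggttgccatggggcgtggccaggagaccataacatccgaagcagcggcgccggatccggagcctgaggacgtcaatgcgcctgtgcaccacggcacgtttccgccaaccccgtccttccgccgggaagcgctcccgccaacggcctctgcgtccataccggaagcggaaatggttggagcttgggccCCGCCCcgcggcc
*Ssr3*: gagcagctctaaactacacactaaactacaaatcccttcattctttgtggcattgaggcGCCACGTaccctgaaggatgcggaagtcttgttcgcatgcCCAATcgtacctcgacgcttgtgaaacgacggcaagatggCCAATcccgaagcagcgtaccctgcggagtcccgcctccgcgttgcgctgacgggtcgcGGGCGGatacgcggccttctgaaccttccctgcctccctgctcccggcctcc
The *Rer1* stretch holds 1 CCAAT box and 1 GC box, both as the reverse complement, and 0 matches to ACGTGGC. The *Ssr3* stretch holds 1 match to ACGTGGC, as its reverse complement, with 2 CCAAT boxes and 1 GC box. CCAAT and GC boxes are common in promoters, and how often each set of letters occurs among all promoters is given with the other members further on.

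**Figure D2:**
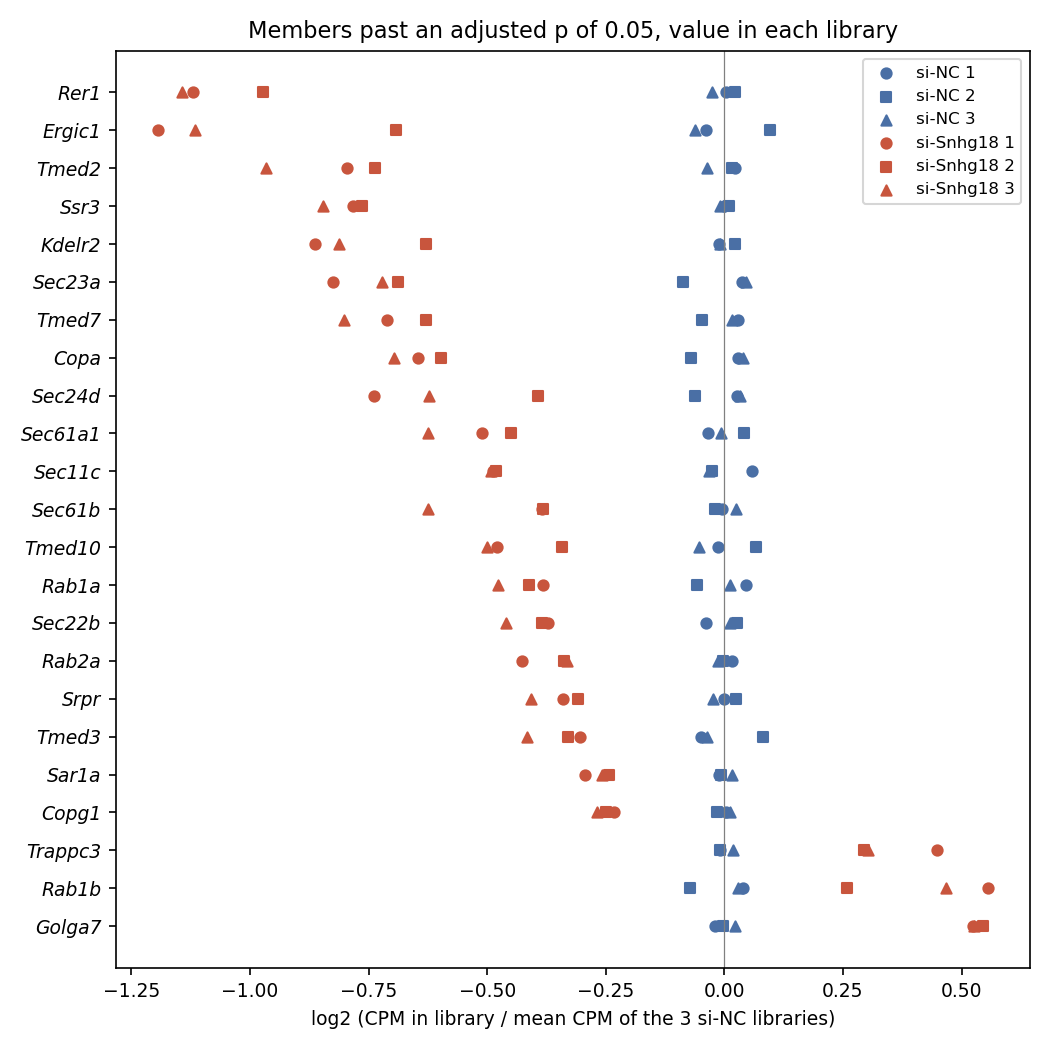
Log2 of the CPM in each library over the mean CPM of the 3 si-NC libraries, for the 20 members that were lower and the 3 that were higher at an adjusted p under 0.05; circles, squares and triangles are libraries 1, 2 and 3. Blue control points gather near 0 and the red knockdown points of each gene lie apart from them. Library si-*Snhg18* 2 is the knockdown library nearest to the controls for most of these genes, among them *Rer1*, *Ergic1*, *Kdelr2* and *Sec24d*.

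The counts by role that follow stand beside 3.71% of all genes lower and 3.65% higher, and 13.6% in each direction with the block. Counts of fitted values below 0 stand beside 49.2% of all genes. Nothing is read from them either. At the ribosome and the ER membrane, the SRP and its receptor had 10 tested members, of which 1 was lower (3 with the block), with a median of -0.12. *Srpr*, the alpha subunit of the receptor that docks SRP, was at 178, 181 and 175 CPM in si-NC and 140.5, 143 and 134 CPM in si-*Snhg18* and was the member that fell (log2FC -0.35, SE 0.0601). It lies across *Tirap*, *Foxred1* and *Fam118b* on the opposite strand, and the strand setting of the counting is not known. *Srprb*, the membrane-anchored beta subunit, was at 103, 89.5 and 97.8 CPM in si-NC and 86.3, 71.1 and 73.1 CPM in si-*Snhg18*, and *Srp9*, which binds the Alu domain of the SRP RNA, at 61.7, 65.9 and 64.4 CPM in si-NC and 55.9, 50.3 and 51.6 CPM in si-*Snhg18*. Both lay lower in every knockdown library and passed only with the block (log2FC -0.33, SE 0.1002 for the former, and -0.28 with SE 0.0735 for the latter). *Srp14*, the partner of *Srp9* in the same heterodimer, was at 77.1, 70.4 and 82.1 CPM in si-NC and 80.3, 78.4 and 80.5 CPM in si-*Snhg18*, and its groups overlapped.

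The channel that proteins pass through and its auxiliary subunits had 6 tested members, of which 2 were lower (4 with the block). The median was -0.27, and all 6 fitted values lay below 0. *Sec61a1*, the pore-forming alpha subunit, was at 280.5, 296 and 286 CPM in si-NC and 202, 210.3 and 186 CPM in si-*Snhg18* (log2FC -0.53, SE 0.0705). *Sec61b*, the small beta subunit, was at 55.1, 54.5 and 56.2 CPM in si-NC and 42.3, 42.4 and 35.8 CPM in si-*Snhg18* (log2FC -0.46, SE 0.0891). Neither gene's groups overlapped. *Sec61g*, the gamma subunit, was at 40.9, 41.5 and 35.7 CPM in si-NC and 35.02, 33.4 and 28.8 CPM in si-*Snhg18* and passed only with the block (log2FC -0.28, SE 0.109), and so did *Sec62* (log2FC -0.20, SE 0.0585). The paralog *Sec61a2* (log2FC -0.25, SE 0.0936) and *Sec63*, which recruits the chaperone BiP to the channel (log2FC -0.10, SE 0.0669), passed in neither fit.

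TRAP aids the insertion of some signal sequences, and *Ssr3* was the subunit of 4 that was called. *Ssr1*, the alpha subunit, was at 303, 296 and 311 CPM in si-NC and 276, 275 and 264 CPM in si-*Snhg18*, with 89.5% of the control mean remaining. *Ssr4*, the delta subunit, was at 71.9, 68.4 and 67.3 CPM in si-NC and 66.7, 59.9 and 59.8 CPM in si-*Snhg18*. For both genes the groups did not overlap, but neither passed the test with or without the block (log2FC -0.16, SE 0.0596 for *Ssr1*, and -0.16 with SE 0.0751 for *Ssr4*). *Ssr2*, the beta subunit, was at 68.9, 76.4 and 71.2 CPM in si-NC and 75.6, 84.5 and 73.3 CPM in si-*Snhg18* and its groups overlapped (log2FC 0.11, SE 0.0827). As a share of the reads per length of the 4 subunits, *Ssr3* went from 36.2% ± 0.214 in si-NC to 25.9% ± 0.158 in si-*Snhg18*, and the sum of the 4 from 503 ± 0.372 to 405 ± 12.8 RPKM (reads scaled to library size and exon length).

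Signal peptidase had 5 members, of which 1 was lower (2 with the block). *Spcs3*, a subunit that the enzyme needs for activity, had the lowest fitted value of all 95 members (log2FC -1.25, SE 0.307). It was at 155, 228 and 148 CPM in si-NC and 50.9, 108 and 64.4 CPM in si-*Snhg18*, with the highest value of each group in the library numbered 2. The groups did not overlap, yet *Spcs3* passed edgeR's test only with the block, with a log2 fold change of -1.29 (SE 0.102). DESeq2 called it lower without the block. *Sec11c*, a catalytic subunit, was at 16.9, 15.97 and 15.9 CPM in si-NC and 11.6, 11.7 and 11.6 CPM in si-*Snhg18* and fell (log2FC -0.49, SE 0.0969). *Sec11a*, the other catalytic subunit, was at 47.4, 52.1 and 48.3 CPM in si-NC and 43.96, 51.1 and 40.99 CPM in si-*Snhg18* and its groups overlapped. *Spcs1* and *Spcs2*, which are accessory subunits, remained at 89.2% and 90.5% of their control means and passed in neither fit.

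COPII and the proteins that assemble it had 14 members, of which 3 were lower (7 with the block), with a median of -0.14. *Sec23a*, a subunit of the inner coat layer, was at 211, 193 and 212 CPM in si-NC and 116, 127 and 124 CPM in si-*Snhg18*, the largest change of the group (log2FC -0.74, SE 0.07199). *Sec24d*, a cargo-binding adaptor of the inner coat, was at 231, 217 and 232 CPM in si-NC and 136, 173 and 147 CPM in si-*Snhg18* (log2FC -0.58, SE 0.0999), with si-*Snhg18* 2 the highest of its group. *Sar1a*, the GTPase that starts coat assembly, was at 265, 266 and 270.1 CPM in si-NC and 218, 225 and 223 CPM in si-*Snhg18* (log2FC -0.26, SE 0.0567). For all 3 genes no knockdown library reached the controls. Among the paralogs, *Sec23b* was at 81.5, 69.4 and 75.9 CPM in si-NC and 70.3, 58.2 and 65.3 CPM in si-*Snhg18*, *Sec24a* at 67.6, 63.6 and 72.7 CPM in si-NC and 64.1, 45.5 and 54.4 CPM in si-*Snhg18* and *Sar1b* at 61.6, 45.4 and 59.1 CPM in si-NC and 67.1, 55.8 and 61.2 CPM in si-*Snhg18*. The groups of these 3 overlapped, and *Sec23b* and *Sec24a* passed only with the block. The scaffold gene *Sec16a* (log2FC -0.23, SE 0.0702) and the outer coat gene *Sec13* (log2FC -0.21, SE 0.0814) also passed only with the block. *Sec31a*, which pairs with *Sec13* in the outer coat, was at 479, 429 and 491 CPM in si-NC and 479, 405 and 456 CPM in si-*Snhg18*, and *Sec16b*, at 3.37, 4.25 and 3.77 CPM in si-NC and 7.004, 4.04 and 5.096 CPM in si-*Snhg18*, was among the 3 members with the largest fitted rise (log2FC 0.50, SE 0.245) without passing.

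The p24 (Tmed) proteins are cargo adaptors that cycle between ER and Golgi. Of 11 members 9 were tested, and 4 were lower (5 with the block), with a median of -0.36, the lowest of any role. *Tmed2*, the p24 beta subunit, was at 230.4, 229 and 221 CPM in si-NC and 131, 136 and 116 CPM in si-*Snhg18* (log2FC -0.83, SE 0.0782). *Tmed7*, of the gamma subfamily, was at 212, 201 and 209.8 CPM in si-NC and 127, 134 and 119 CPM in si-*Snhg18* (log2FC -0.71, SE 0.0701). *Tmed10*, the delta subunit, was at 195, 206 and 189.8 CPM in si-NC and 142, 155 and 139 CPM in si-*Snhg18* (log2FC -0.44, SE 0.0726). In these 3 genes every knockdown library lay clear of the controls, by the widest margin in *Tmed2*. *Tmed3*, another gamma member, was at 58.7, 64.2 and 59.1 CPM in si-NC and 49.1, 48.3 and 45.5 CPM in si-*Snhg18* (log2FC -0.35, SE 0.0743), and *Tmed8* at 31.6, 35.6 and 30.5 CPM in si-NC and 21.2, 27.5 and 23.3 CPM in si-*Snhg18*, which passed only with the block (log2FC -0.44, SE 0.125). *Tmed9*, the alpha subunit, was at 188, 169.9 and 178 CPM in si-NC and 189, 163 and 179 CPM in si-*Snhg18* (log2FC -0.01, SE 0.0802) and *Tmed5* at 159.6, 135 and 160.1 CPM in si-NC and 148, 128 and 147 CPM in si-*Snhg18* (log2FC -0.10, SE 0.0994), and the groups of both overlapped.

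Among the 10 cargo and retrieval receptors, 3 were lower (with the block 4 were lower and 1 higher). Besides *Rer1*, *Ergic1* fell, which encodes a membrane protein that cycles through the ER-Golgi intermediate compartment. It was at 318, 349 and 313 CPM in si-NC and 143, 202 and 151 CPM in si-*Snhg18* (log2FC -0.98, SE 0.142), again with both libraries numbered 2 the highest. *Ergic1* overlaps *Dusp1* on the opposite strand, which had 3536.5 reads on average against 5817 for *Ergic1* and a log2FC of -0.47. Its partners *Ergic2*, at 74.9, 72.4 and 75.2 CPM in si-NC and 70.6, 75.2 and 73.98 CPM in si-*Snhg18*, and *Ergic3*, at 101, 106 and 101 CPM in si-NC and 116, 104 and 114 CPM in si-*Snhg18*, had groups that overlapped.

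The KDEL receptors bring escaped ER chaperones back from the Golgi, and 1 of the 3 fell. *Kdelr2* was at 159, 163 and 159.6 CPM in si-NC and 88.3, 104 and 91.5 CPM in si-*Snhg18* and fell (log2FC -0.76, SE 0.0789). *Kdelr1* was at 115, 133 and 115 CPM in si-NC and 120.5, 135 and 123 CPM in si-*Snhg18*, with overlapping groups (log2FC 0.06, SE 0.0872). *Kdelr3* was at 89.6, 91.8 and 92.5 CPM in si-NC and 108, 106 and 101 CPM in si-*Snhg18*, higher in every knockdown library, and passed only with the block (log2FC 0.20, SE 0.0608). *Kdelr3* shares bases with *Ddx17* on the opposite strand, which had 9861 reads on average against 2306.5 for *Kdelr3* and a log2FC of 0.19. *Lman1* (ERGIC-53), a lectin that exports glycoproteins, was at 166, 194 and 171 CPM in si-NC and 127, 165 and 131 CPM in si-*Snhg18* and passed only with the block (log2FC -0.33, SE 0.123). *Surf4*, an export receptor for soluble cargo, was at 549.7, 524 and 563 CPM in si-NC and 542, 468 and 509.5 CPM in si-*Snhg18*, and its groups overlapped (log2FC -0.11, SE 0.0772).

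COPI had 8 members, of which 2 were lower (3 with the block), with a median of -0.14. *Copa*, the alpha subunit, was at 579.5, 542 and 584 CPM in si-NC and 363, 375 and 351 CPM in si-*Snhg18* (log2FC -0.65, SE 0.0658), the largest change of the coat. It overlaps *Ncstn* on the opposite strand, which had 5436 reads on average against 10969.5 for *Copa* and a log2FC of 0.22. *Copg1*, a gamma subunit, was at 317, 312 and 319 CPM in si-NC and 269, 266 and 262 CPM in si-*Snhg18* (log2FC -0.25, SE 0.0562). *Copz2*, a zeta subunit, was at 37.3, 44.6 and 41.99 CPM in si-NC and 28.9, 34.6 and 31.7 CPM in si-*Snhg18* and passed only with the block (log2FC -0.38, SE 0.107). The beta subunits *Copb1*, at 221, 215 and 231 CPM in si-NC and 204, 199 and 199 CPM in si-*Snhg18*, and *Copb2*, at 341, 317 and 343 CPM in si-NC and 317, 298 and 294 CPM in si-*Snhg18*, were lower in every knockdown library without passing in either fit. *Cope*, at 96.1, 94.2 and 93.6 CPM in si-NC and 94.8, 98.5 and 108 CPM in si-*Snhg18*, and *Copz1*, at 89.5, 88.4 and 85.9 CPM in si-NC and 89.6, 97.4 and 91.95 CPM in si-*Snhg18*, each stood at 106% of the control mean. *Copg2* was at 23.96, 28.5 and 21.8 CPM in si-NC and 16.9, 36.4 and 19.1 CPM in si-*Snhg18* and was highest in si-*Snhg18* 2, so that its fitted value (log2FC -0.03, SE 0.299) turned positive, to between 0.077 and 0.17, without si-NC 2, si-*Snhg18* 1 or si-*Snhg18* 3. *Arcn1*, the delta subunit, is no member by its symbol and had a log2 fold change of -0.02 (adjusted p = 0.937, edgeR).

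The 9 Rab GTPases and Sec22 SNAREs had 3 members lower and 1 higher (4 and 1 with the block), with a median of -0.33. *Rab1a* and *Rab1b* encode near-identical GTPases that direct vesicles from the ER to the Golgi, and they moved in opposite directions. *Rab1a* was at 318, 296 and 311 CPM in si-NC and 237, 232 and 222 CPM in si-*Snhg18* (log2FC -0.42, SE 0.06403). *Rab1b* was at 167, 155 and 166 CPM in si-NC and 239, 195 and 225 CPM in si-*Snhg18* (log2FC 0.43, SE 0.0924). Neither gene's groups overlapped, and the sum of both per length was 194 ± 7.51 RPKM in si-NC and 196 ± 12.5 RPKM in si-*Snhg18*, with overlapping groups. *Rab2a*, which acts in retrieval at the same compartment, was at 199.97, 197 and 196 CPM in si-NC and 147, 156 and 157 CPM in si-*Snhg18* (log2FC -0.36, SE 0.0602), and *Rab6a*, which serves the Golgi, at 167, 176 and 172 CPM in si-NC and 164, 172 and 159 CPM in si-*Snhg18* (log2FC -0.05, SE 0.0633). Only the former of these was called. *Sec22b*, the SNARE of ER-derived vesicles, was at 86.9, 90.9 and 89.9 CPM in si-NC and 68.97, 68.4 and 64.8 CPM in si-*Snhg18* and fell (log2FC -0.41, SE 0.0624). *Sec22c*, a related protein, was at 12.5, 15.4 and 13.2 CPM in si-NC and 5.42, 11.7 and 7.67 CPM in si-*Snhg18* and passed only with the block (log2FC -0.73, SE 0.281).

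TRAPP complexes tether vesicles and activate Rab1. Of 14 tested subunits 1 was higher (with the block 2 were higher and 3 lower), and 7 fitted values lay on each side of 0. *Trappc3*, a core subunit, was at 48.05, 48.02 and 48.98 CPM in si-NC and 66.002, 59.3 and 59.6 CPM in si-*Snhg18* and rose (log2FC 0.35, SE 0.0732). *Trappc5*, another core subunit, was at 32.1, 28.7 and 37.2 CPM in si-NC and 54.6, 34.1 and 47.1 CPM in si-*Snhg18* and passed only with the block, with overlapping groups (log2FC 0.47, SE 0.189). The paralogs *Trappc6a*, at 13.4, 19.3 and 11.9 CPM in si-NC and 7.64, 12.6 and 8.27 CPM in si-*Snhg18*, and *Trappc6b*, at 40.2, 43.3 and 38.9 CPM in si-NC and 29.99, 35.8 and 27.8 CPM in si-*Snhg18*, and the subunit *Trappc12*, at 31.6, 32.8 and 28.8 CPM in si-NC and 24.1, 26.9 and 22.5 CPM in si-*Snhg18*, were lower with the block only (log2FC -0.64, SE 0.264, then -0.39 with SE 0.114 and -0.34 with SE 0.104). Of 6 golgins tested 1 was higher (with the block 2 were higher and 3 lower). *Golga7* was at 79.8, 80.7 and 82.2 CPM in si-NC and 116, 118 and 117 CPM in si-*Snhg18*, with a gap between groups far wider than the spread within either, and rose more than any other member (log2FC 0.53, SE 0.0559). Its protein is a partner of a palmitoyltransferase rather than a coiled-coil tether. *Golga4*, a tether of the trans-Golgi, was at 231, 211 and 251 CPM in si-NC and 303, 256 and 289 CPM in si-*Snhg18* and was higher with the block only (log2FC 0.29, SE 0.09698). *Golga5*, at 48.2, 50.3 and 49.3 CPM in si-NC and 36.8, 41.8 and 36.9 CPM in si-*Snhg18*, was lower with the block only (log2FC -0.36, SE 0.0811), as were *Golga2* (log2FC -0.25, SE 0.0631) and *Golga3* (log2FC -0.18, SE 0.0656). *Golga2* shares bases with *Swi5* on the opposite strand, which had 3193 reads on average against 2301 for *Golga2* and a log2FC of -0.63.

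The share of each paralog within its family shows these shifts without a scale for the library. Among the 3 KDEL receptors, *Kdelr2* went from 38.5% ± 0.849 of the summed RPKM in si-NC to 25.2% ± 1.09 in si-*Snhg18*, *Kdelr1* from 33.2% ± 1.69 to 38.4% ± 0.748 and *Kdelr3* from 28.3% ± 0.907 to 36.4% ± 1.82. *Kdelr2* was thus the first of the 3 in every control and the last in every knockdown library. *Rab1a* went from 56.2% ± 0.288 of the Rab1 sum to 41.6% ± 2.65, so that *Rab1b* became the larger part in all 3 knockdown libraries. *Ergic1* went from 56.2% ± 0.993 of the Ergic sum to 37.7% ± 5.44, and *Ergic3* from 35.4% ± 0.488 to 51.2% ± 5.21. *Sec24d* went from 42.6% ± 1.32 of the Sec24 sum to 32.9% ± 4.87. In each of these families the shares of the named genes did not overlap between groups. The order within a family depends on the gene length used, since with the length of all annotated exons *Kdelr2* went from 40.5% to 26.7%, *Rab1a* from 53.1% to 38.6%, *Ergic1* from 38.2% to 22.7% and *Ssr3* from 58.9% to 45.9%. The direction was the same for these 4 genes with either length, but *Ergic3* was then the larger part of its family in si-NC as well.

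**Figure D3:**
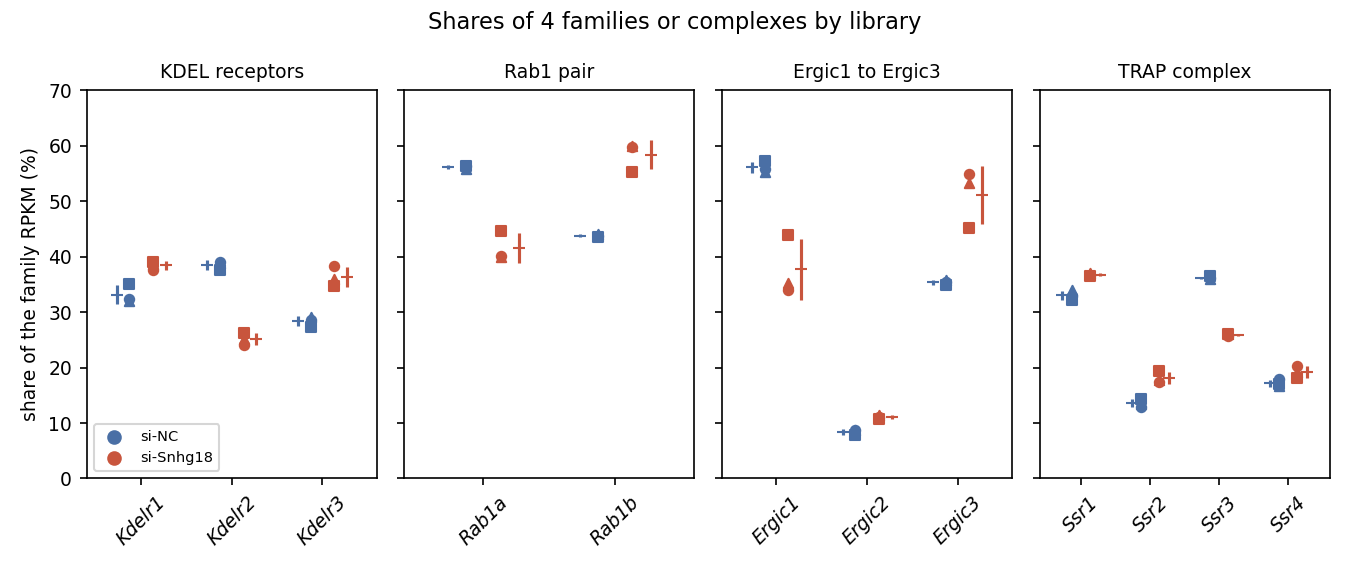
Share of the summed RPKM of the KDEL receptors, the Rab1 pair, the Ergic proteins and the TRAP complex that each gene took in each library (percent, exon length of the count table); circles, squares and triangles are libraries 1, 2 and 3, and crosses show the mean with the SD. *Kdelr2*, *Rab1a*, *Ergic1* and *Ssr3* take a smaller share in all 3 knockdown libraries, and their partners a larger one.

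By level per length, *Srpr* was the highest member with the exon length of the table, at 252 RPKM over the 6 libraries, but that length is 630 bases where the annotated exons add up to 3364 bases. With the latter, *Surf4* was the highest at 160 RPKM, followed by *Ssr3* at 102 RPKM. For 31 of the 99 members the annotated exons were more than 2 times as long as the table's length, and the rank correlation between the 2 sets of levels was 0.843 over these 99 genes, with the same reads behind both. *Sec31b*, at 1.295, 0.898 and 0.8897 CPM in si-NC and 0.871, 0.731 and 1.59 CPM in si-*Snhg18*, had the lowest level in CPM of the tested members.

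Several members deviated together in the 2 libraries numbered 2. In both of them, *Spcs3*, *Trappc6a*, *Copg2* and *Srp54b* lay more than 0.2 above their group mean on the log2 CPM scale, and *Sec24b* and *Tmed4* more than 0.2 below it. By the same distance no member deviated to 1 side in both libraries numbered 1, and *Srp54b* alone did in those numbered 3. *Spcs3* was 0.39 above in si-NC 2 and 0.61 above in si-*Snhg18* 2, and *Trappc6a* 0.41 and 0.44 above. *Sec24b* stood at -0.22 and -0.35 from its group means, and *Tmed4* at -0.24 and -0.25. *Rer1* and *Ssr3* deviated by 0.02 and 0.01 in si-NC 2 and by 0.11 and 0.03 in si-*Snhg18* 2. The median difference of the members within the same-numbered pairs was -0.17, -0.11 and -0.22, lowest in size for pair 2.

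**Figure D4:**
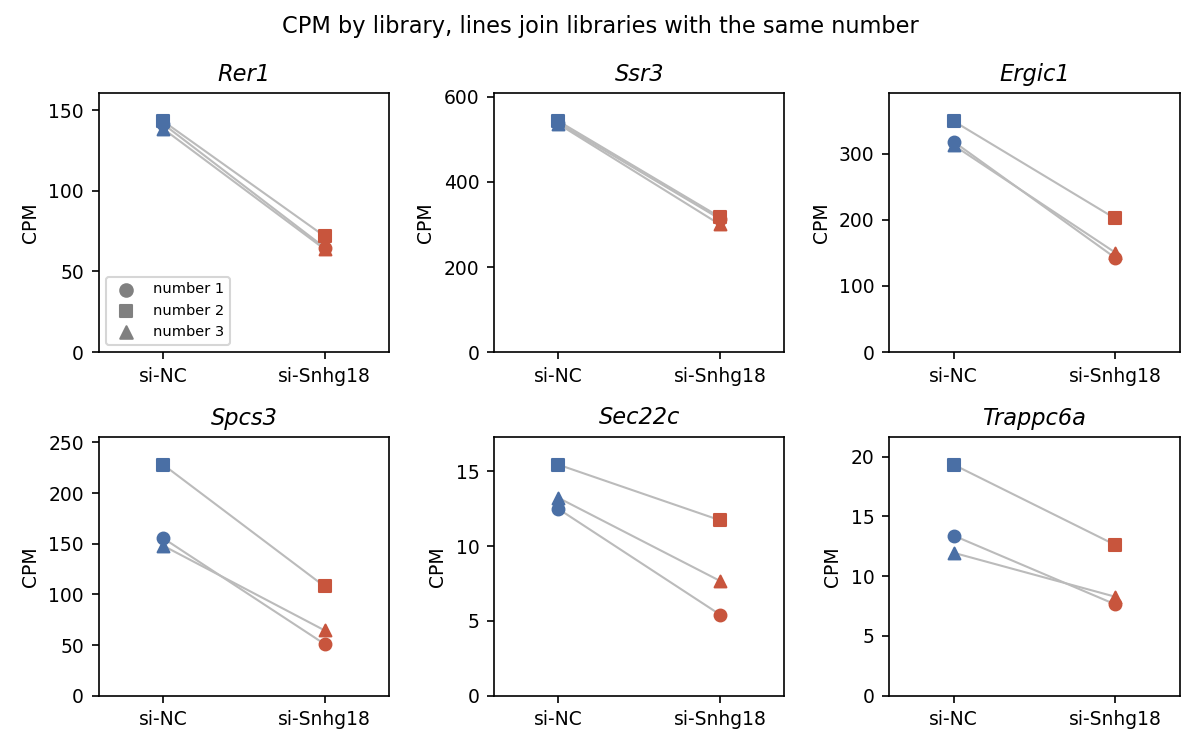
CPM of 6 members in each library, with lines that join libraries of the same number; the axes start at 0. *Rer1* and *Ssr3* run in nearly parallel lines, while *Ergic1*, *Spcs3*, *Sec22c* and *Trappc6a* are highest in library 2 of both groups and lower in the knockdown library of each pair.

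What the members share beyond their symbols was looked for in their promoters, taken as the bases from 250 before to 50 after the RefSeq start (GRCm38.p6). Of the 95 tested members 78 had an entry, as did 10538 of all 14531 tested genes, which matched 10536 promoter genes. The searches, on both strands, were for the ER stress response elements ERSE and ERSE-II by their usual forms, the shared ending CCACG and the longer form CCACGT, the unfolded protein response element TGACGTGG and its shorter form TGACGTG, the cAMP response element TGACGTCA and its part TGACG, the core letters ACGTG alone, the E-box CACGTG, the CCAAT box CCAAT, the GC box GGGCGG and its longer form GGGGCGGGG, the antioxidant response letters TGACNNNGC, and last ACGTGGC. Of these 15, ACGTGGC was chosen for display after the counts were seen. It contains the core letters ACGTG, and its reverse complement contains CCACGT, so that these counts overlap.

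ACGTGGC occurred in 20 of 78 member promoters (25.6%), beside 4.58% of the promoters of all tested genes and 2.95% of the 27025 promoters in the table. TGACGTGG, which overlaps it, occurred in 7.69% of member promoters and 1.03% of those of tested genes. The shorter ACGTG occurred in 56.4% and 29.3%. The CCAAT box occurred in 44.9% and 43.2%, and the GC box in 70.5% and 68.5%. ERSE occurred in 0 of the 78 members and 0.161% of tested genes, and the cAMP response element in 1.28% and 3.57%.

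By role, ACGTGGC was found in 7 of 14 promoters of COPII genes (*Sar1a*, *Sec13*, *Sec16b*, *Sec23a*, *Sec24c*, *Sec24d* and *Sec31a*), and in 2 of 3 TRAP promoters (*Ssr1* and *Ssr3*). The counts that follow stand beside 3.71% of all genes lower and 3.65% higher, and nothing is read from them. Of the 20 members with these letters, 6 were lower in si-*Snhg18*. Of the 58 without them, 8 were lower and 2 were higher. The median level was 44.4 RPKM with the letters and 31.4 RPKM without. The GC box stood in 13 of 14 promoters of lower members and in 42 of 64 of the others. Of the 17 tested members with no promoter entry, 6 were lower and 1 was higher. The 6 lower members with the letters were *Sec23a*, *Sec24d*, *Ssr3*, *Sar1a*, *Copg1* and *Tmed3*, and the median log2 fold change was -0.20 with the letters and -0.14 without.

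Windows around matches that lie before the RefSeq start are shown for 3 members that fell, to set beside *Ssr3* above, and for 3 that were not called without the block (of which *Kdelr3* was higher with it), since the same letters stood in both kinds of gene. The *Sec24d* window begins at the first base of that gene in the coordinates that come with the counts, so its match lies inside them. Capitals mark ACGTGGC or its reverse complement GCCACGT, and each window is read on the gene's strand in GRCm38.p6. *Sar1a* is chr10:61680110-61680150 (plus strand), *Sec24d* is chr3:123267455-123267495 (plus), *Tmed3* is chr9:89705221-89705261 (minus), *Ssr1* is chr13:37994259-37994299 (minus), *Sec24c* is chr14:20674229-20674269 (plus) and *Kdelr3* is chr15:79516360-79516400 (plus).
*Sar1a*: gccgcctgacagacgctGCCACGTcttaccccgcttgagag
*Sec24d*: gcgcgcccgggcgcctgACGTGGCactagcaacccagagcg
*Tmed3*: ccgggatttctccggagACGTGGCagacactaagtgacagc
*Ssr1*: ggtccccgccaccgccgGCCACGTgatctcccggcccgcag
*Sec24c*: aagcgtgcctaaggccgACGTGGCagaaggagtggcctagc
*Kdelr3*: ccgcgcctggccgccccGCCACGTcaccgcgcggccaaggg
Between the central base of the match and the start lay 154 bases in *Sar1a*, 20 in *Sec24d*, 197 in *Tmed3*, 187 in *Ssr3*, 71 in *Sec24c* and 27 in *Kdelr3*. The *Ssr1* promoter held the letters with 70 and again with 23 bases between. A match of letters is no evidence that a factor binds there.

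Other genes of the pathway were read from 4 lists that the symbols of the members do not cover. The lists were written with an earlier account of these data known, so their counts and p-values are descriptions too. Beside them stand 3.71% of all genes lower and 3.65% higher, and 13.6% in each direction with the block. Of 20 other translocation genes tested, 1 was lower and 1 was higher (2 and 4 with the block), with a median log2 fold change of 0.05. *Mmgt1*, a subunit of the ER membrane complex, which inserts membrane proteins, fell from 48.8 ± 3.44 to 32.9 ± 2.94 CPM (log2FC -0.57, SE 0.0986, adjusted p = 0.0259), and *Emc10*, another subunit of it, rose from 90.5 ± 2.64 to 113 ± 3.602 CPM (log2FC 0.33, SE 0.0613, adjusted p = 0.0318). Of 12 genes of the oligosaccharyltransferase, which puts sugar chains on proteins as they enter the ER, 2 were lower (5 with the block), with a median of -0.14. They were *Tusc3*, from 74.5 ± 3.08 to 46.1 ± 4.71 CPM (log2FC -0.69, SE 0.0947, adjusted p = 0.0144), and the catalytic subunit *Stt3a*, from 331 ± 10.2 to 265 ± 16.6 CPM (log2FC -0.32, SE 0.0713, adjusted p = 0.0464). All p-values in this and the next paragraph are from edgeR's quasi-likelihood test over all genes.

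Of 41 other genes of ER-Golgi traffic tested, 4 were lower (with the block 12 were lower and 2 higher), with a median of -0.08. *Mcfd2*, the soluble partner of *Lman1* in the export of coagulation factors, was at 248, 299 and 252 CPM in si-NC and 103, 132 and 100.1 CPM in si-*Snhg18* (log2FC -1.25, SE 0.137, adjusted p = 0.00889). All 3 knockdown libraries were under the lowest control. *Mia3* (TANGO1), which loads collagen into COPII carriers, fell from 191 ± 4.85 to 149.8 ± 4.605 CPM (log2FC -0.35, SE 0.0606, adjusted p = 0.0253), and *Scfd1*, a regulator of SNARE assembly, from 47.8 ± 2.62 to 37.5 ± 0.344 CPM (log2FC -0.35, SE 0.0741, adjusted p = 0.0421). The other gene was *Bet1*, a SNARE. Of 31 unfolded protein response genes tested, 11 were lower (with the block 18 were lower and 2 higher), which is 35.5% lower beside 3.71% of all genes, with a median of -0.28. The 11 were the chaperones and folding factors *Calr*, *Hyou1*, *Hsp90b1*, *Dnajc3*, *Hspa5*, *Manf*, *Dnajc10*, *Sdf2l1*, *Creld2*, *Pdia4* and *Canx*. *Calr*, a lectin chaperone of the ER lumen, was at 1605, 1473 and 1608 CPM in si-NC and 966, 916 and 886 CPM in si-*Snhg18* (log2FC -0.76, SE 0.0707, adjusted p = 0.00742). *Hyou1* fell from 257 ± 4.58 to 172 ± 13.6 CPM (log2FC -0.58, SE 0.0768, adjusted p = 0.0137) and *Hsp90b1*, whose protein carries the KDEL signal, from 1405 ± 99.5 to 891 ± 71.9 CPM (log2FC -0.66, SE 0.0892, adjusted p = 0.0143). The regulators of the response were not called without the block. *Xbp1* was at 90.5, 116 and 93.6 CPM in si-NC and 56.8, 88.3 and 69.7 CPM in si-*Snhg18* (log2FC -0.48, SE 0.179, adjusted p = 0.1602, and 0.0035 with the block). With the block *Atf6* (adjusted p = 0.233 without it and 0.0208 with it, edgeR), *Eif2ak3* (0.212 and 0.0441) and *Creb3l1* (0.348 and 0.0445) also passed, the first 2 lower and *Creb3l1* higher. *Atf4* (0.491 and 0.22) and *Ddit3* (0.860 and 0.654) passed in neither fit.

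**Figure D5:**
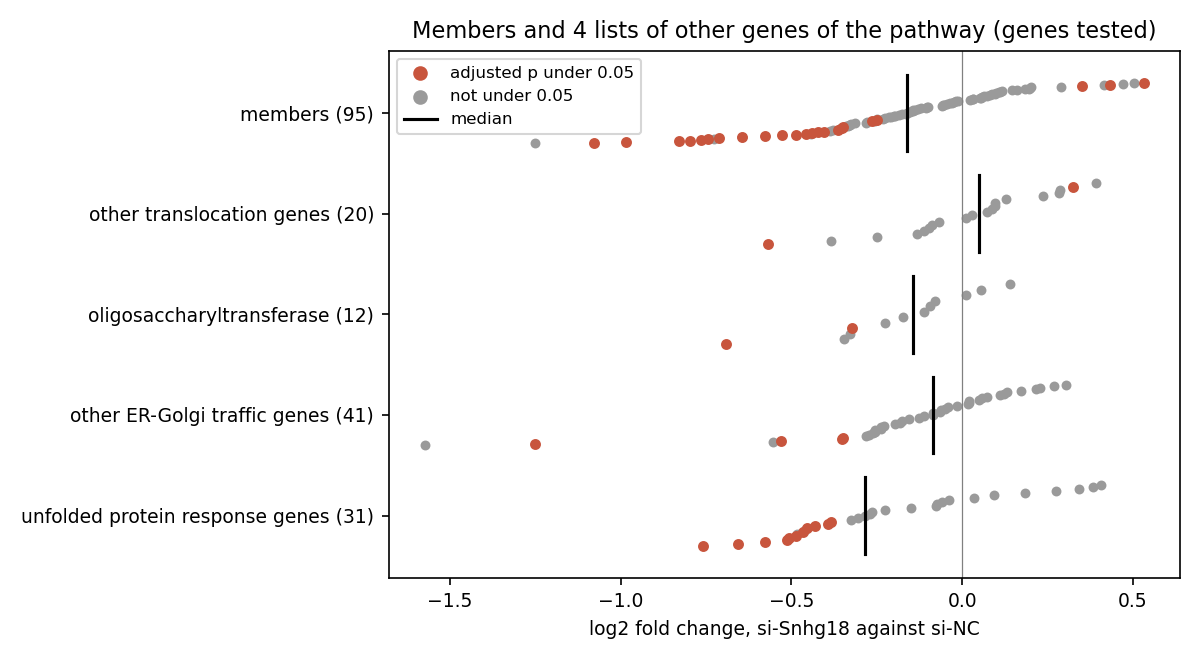
Log2 fold change of the 95 tested members and of the tested genes of 4 lists, with black lines at the medians; red points passed an adjusted p of 0.05. The median is -0.16 for the members and -0.28 for the unfolded protein response genes, while that of the other translocation genes is 0.05.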

How the data were processed

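The mRNA of mPASMCs was sequenced, and the group of each library (3 si-NC and 3 si-*Snhg18*) was taken from the sample labels. Libraries were made with a TruSeq Stranded mRNA kit. The deposited values are raw counts of reads for each gene, as whole numbers, beside an exon length for each gene. The submitters' processing notes name HISAT2 and mm10. The counting program, its strand setting and any filter on reads are not given in the sources used here, so reads of near-identical copies and of overlapping genes on opposite strands may be divided in ways the counts do not show. The prefix of the knockdown columns was read as si-*Snhg18*, because all other columns of counts carry the control name. Every column of counts belonged to these 6 libraries.

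The groups were compared by the quasi-likelihood functions of edgeR 4.0.16 in R 4.3.3 (glmQLFit, then glmQLFTest), after a filterByExpr step at a minimum count of 10 and TMM scaling. P-values were adjusted by Benjamini-Hochberg over the 14531 genes kept. Log2 CPM values carried a prior count of 2, and the RPKM values were computed from the CPM and the exon length. The total per library ranged from 18097718 to 25988746 reads, and floors of 3 reads cover counting error only. With 3 libraries against 3, differences of low genes are measured less precisely, and fold changes are therefore given with their SE.

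Members, lists and roles were chosen with earlier results of these data known, so a count of members or of listed genes called is a description. The genes named were those of the choice (*Rer1* and *Ssr3*), members at an adjusted p under 0.05, members that passed with the block and at least a 1.2-fold change, the TRAP, COPI and KDEL receptor members, the member of each role with the highest RPKM, the 3 largest fitted rises and falls, and up to 3 called genes per list and direction. Other members are named to complete a complex or a paralog family, and those and the paralog families shown were chosen after their values were seen.

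The labels number the libraries 1 to 3 in each group, which is where the pairing comes from. Deviations from the group means of same-numbered libraries correlated at 0.41, 0.742 and 0.359 over 14531 genes, and the numbers were taken to pair the libraries. The deviations of a gene within a group of 3 sum to 0, so a deviation shared at number 2 alone also raises the values at numbers 1 and 3. These correlations therefore cannot show that all 3 numbers pair libraries, and the calls with the block rest on that reading. Over the 95 members they correlated at -0.484, 0.87 and 0.845, and over the 92 members without the Srp54 copies at 0.312, 0.759 and 0.265. A fit with this number as a block stands beside the planned one without it.

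Alternatives were RLE factors, library totals, DESeq2 1.42.0, limma-voom (limma 3.58.1), no filter, a minimum count of 50, the block and leaving out each library. DESeq2 on 5 libraries, the annotated exon length and the correlations without the Srp54 copies were added after seeing the data. Promoter sequences came from RefSeq on GRCm38.p6, in which 81 of the 99 members had an entry. The edgeR fits were first run on simulated counts with known changes larger than those of most members. The simulated spread was not matched to these data. That run checked the code and does not show how well the fits perform here.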

Additional observations from a re-analysis of the deposited data

How the results depend on the processing

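When the library number was a block (the paired fit), 1972 genes were lower and 1982 were higher in place of 539 and 530, 39 members were lower and 6 were higher in place of 20 and 3, and 37 genes of the 4 pathway lists were lower and 8 higher in place of 18 and 1. All 23 members called without the block stayed called with it in the same direction, so that beyond the added calls it changed no other call. DESeq2 called 949 genes lower and 912 higher and 3 pathway genes higher. Some members that passed only with the block in edgeR were called lower by other fits without it. They include *Spcs3*, *Golga5* and *Tmed8* with DESeq2, and *Golga5* with RLE factors. The number of pathway genes called higher was 2 with library totals, 2 with a minimum count of 50 and 0 with no filter on low counts (edgeR's quasi-likelihood test, against 1). Under these 7 settings 17 to 39 members were lower and 2 to 6 higher, and of the 23 called members 1 was lost with RLE factors, 1 with library totals, 5 with no filter and 0 with DESeq2, limma-voom or a minimum count of 50. When libraries were left out in turn, the count of genes lower ran from 0 to 1737, of genes higher from 0 to 1545, of members lower from 0 to 29, of members higher from 0 to 5, of pathway genes lower from 0 to 31 and of pathway genes higher from 0 to 3, and the members' median from -0.179 to -0.14. No direction of a called member was reversed in any of these fits. Signs were compared for the 52 members that the naming rule took. Among these, the fitted value of *Copg2* turned to 0.0769 without si-NC 2, 0.168 without si-*Snhg18* 1 and 0.107 without si-*Snhg18* 3, in a range from -0.464. That of *Sec31a* turned to 0.00242 without si-*Snhg18* 2, in a range from -0.118. Other members that were not called changed sign too, among them *Srp54b* (-2.50 to 0.94), *Tmed9* (-0.061 to 0.041) and *Ergic2* (-0.040 to 0.0083). The cause was not tested. With 3 libraries in a group, a member that did not pass is not shown to be equal in the groups, and low members are measured loosely, as *Sec31b* near 1 CPM with an SE of 0.392.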

Other observations

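The 3 Srp54 genes, which encode the GTPase subunit of SRP, are near-identical copies on chromosome 12, and the reads they share may be divided between them by the counting. *Srp54a* was at 6.26, 7.39 and 5.85 CPM in si-NC and 4.83, 6.31 and 4.38 CPM in si-*Snhg18*, and *Srp54c* at 14.8, 16.99 and 14.998 CPM in si-NC and 12.9, 15.8 and 12.1 CPM in si-*Snhg18*. Their groups overlapped, and both were highest in the libraries numbered 2. *Srp54b* was at 6.95, 6.08 and 0.593 CPM in si-NC and 0.831, 16.4 and 0.767 CPM in si-*Snhg18*, with levels under 1 CPM in 3 libraries and 16.4 CPM in a single knockdown library, and its fitted log2FC of 0.42 has an SE of 1.30. These genes were picked out after their values had been seen.

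In the list of ER-Golgi traffic genes, *Bcap29*, which encodes an ER membrane protein, was at 7.296, 12.9 and 7.16 CPM in si-NC and 1.82, 5.58 and 1.699 CPM in si-*Snhg18* and had the lowest fitted value of that list (log2FC -1.57, SE 0.518). It did not pass edgeR's quasi-likelihood test without the block (adjusted p = 0.124) and passed with it (adjusted p = 0.00217). *Ern1*, a sensor of unfolded proteins in the ER membrane, was at 48.5, 52.2 and 49.1 CPM in si-NC and 72.6, 61.5 and 61.4 CPM in si-*Snhg18*, above every control in all 3 knockdown libraries (log2FC 0.38, adjusted p = 0.0566, and 0.0148 with the block), while the median of its list was -0.28. Both genes were chosen after their values had been seen.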
